A study of Nasonia vitripennis with 9 samples.

Results

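Gustatory receptor genes of the parasitoid wasp Nasonia vitripennis are described here in 9 RNA sequencing libraries of whole male pupae. The family was taken as every gene row whose symbol is Gr followed by a number, which gave 46 of 15418 named gene rows. All 46 symbols matched protein-coding genes in a RefSeq table of the assembly Nvit_psr_1.1. That table also lists 11 Gr pseudogenes that have no row in the counts and were not analysed here.

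All wasps were males of the laboratory strain AsymCX, cleared of its Wolbachia infection and reared on Calliphora hosts. In 1 group, second-instar larvae (about 3 days after egg laying) received dsGFP, a double-stranded RNA made from the coding sequence of green fluorescent protein and used as a control in RNA interference experiments, at 4 µg/µl in dyed water. In another group larvae received dyed water alone, and the last group was not injected. For both injected groups the labels also give agarose at 1%, and none is given for the uninjected group. Each group had 3 libraries, each from a pool of 5 individuals, and injected animals were frozen 5 to 6 days after injection; the age of the uninjected animals at freezing is not given. The labels call the material white pupae in one field and whole larvae in another, and the treatment protocol gives white pupae. Separate cultures or hosts for the pools of a group are not mentioned, so a p-value here reflects the spread between pools, which may be technical. In whole-body pools, fewer cells of a type and less RNA per cell cannot be told apart.

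Insect gustatory receptors are membrane proteins that form ligand-gated ion channels in the dendrites of taste neurons. These neurons sit in sensilla on the mouthparts, legs, antennae and other body parts, and a single neuron can express several members of the family. In Drosophila melanogaster, members of the family detect sugars, bitter compounds and carbon dioxide, and some are also used in internal organs, such as the fructose receptor Gr43a in the brain. In the honey bee, the receptors numbered Gr1 and Gr2 are sugar receptors and Gr3 is a fructose receptor. The Nasonia genes were not matched to these by sequence here, and they are described by their symbols. No gene among the 46 has the symbol Gr1.

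Gene totals were 33885222 to 46080606 read pairs per library. The cuticular protein genes (35 CPR symbols, of which CPR48 was at 0 in all libraries) summed to 274 CPM (read pairs relative to library size, scaled by TMM) in uninjected 3 and to 17061 CPM in dsGFP 2, so these libraries stood far apart. The TMM scaling factor was also lowest in dsGFP 2 (0.896) and highest in uninjected 3 (1.13). Scaling by library totals alone moved the median log2 fold change of all tested genes between dsGFP and uninjected pupae from 0.01 to -0.11, and Gr58 and Gr5 are given both ways below.

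A single receptor made up most of the family's signal. Gr58 held 50921 of the 55672 read pairs counted for the 46 genes over the 9 libraries (91.5%), and Gr58, Gr2 and Gr5 together held 98.4% (counts without regard to strand, not scaled for gene length). At the other end, 11 genes had 0 counts in every library. A count of 0 over all libraries allows a level of up to 0.00878 CPM (3 counts of the summed totals, counting error only). The silent genes were Gr10, Gr21, Gr25, Gr26, Gr28, Gr29, Gr30, Gr32, Gr34, Gr37 and Gr40. Of these, Gr21 and Gr28 had 1 and 2 counts in the columns for each strand. Of the 35 genes with at least 1 count, 8 passed the filter on low counts, which asks for about 0.271 CPM (10 counts in the library of median size) in at least 3 libraries. These were Gr2, Gr3, Gr5, Gr6, Gr7, Gr42, Gr45 and Gr58. The other 27 detected genes held 249 read pairs together (0.447% of the family), and 8 of them rested on 1 read pair each.

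**Figure D1:**
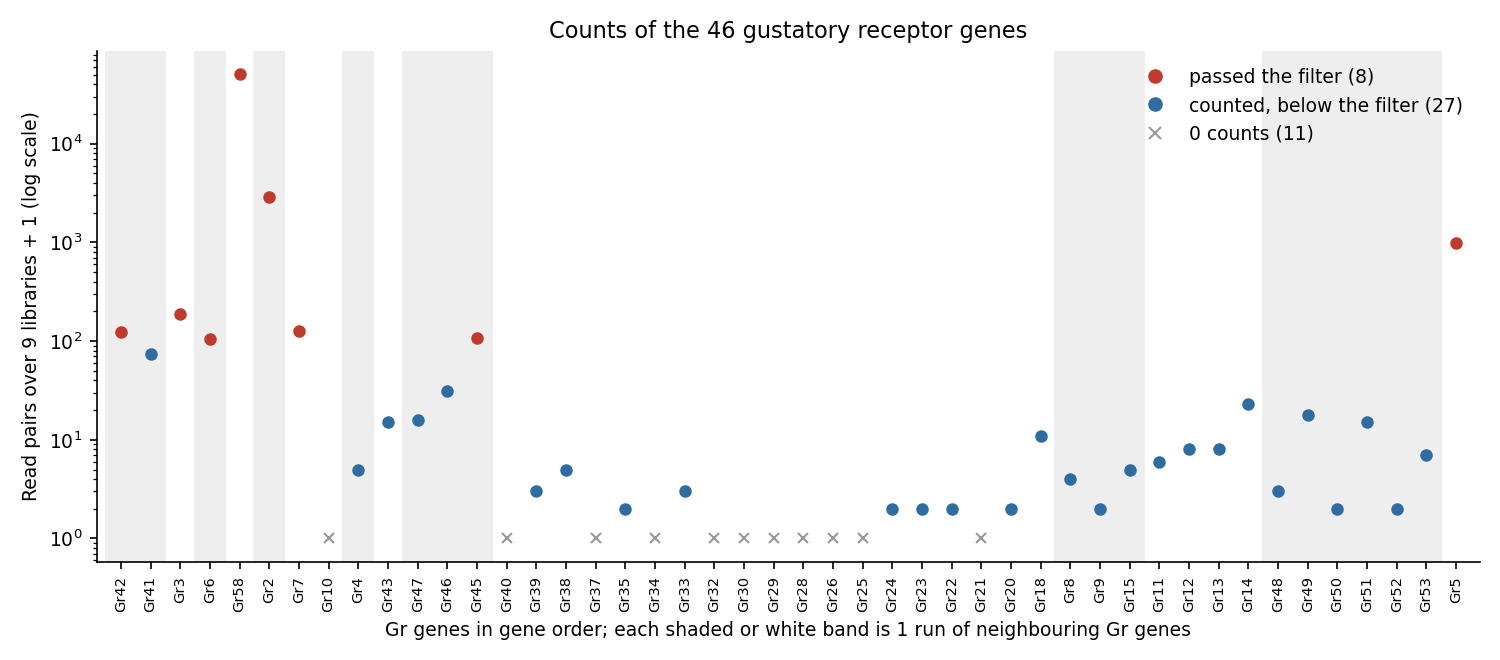
Read pairs of each of the 46 gustatory receptor genes summed over the 9 libraries, plus 1, on a log axis, with the genes in gene order and bands marking runs of neighbouring Gr genes. Gr58 lies at 50921 read pairs, and the longest run, Gr40 to Gr18, holds 23 read pairs over 19 genes.

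Gr58, Gr2 and Gr5, which held nearly all of the counts, stand apart from other Gr genes in gene order. By RefSeq gene order 7 of the 46 genes have no other counted Gr gene beside them. These 7 held 55084 read pairs, with 5 passing the filter. Most of these pairs were from Gr58 (50921), Gr2 (2873) and Gr5 (980), and Gr3, Gr6, Gr43 and Gr4 had 188, 104, 14 and 4. Another 35 genes lie in 5 runs of 3 to 19 neighbouring Gr genes; these held 265 read pairs, and Gr45 alone passed the filter. The 4 genes in runs of 2 held 323 read pairs. The longest run, from Gr40 to Gr18 with 4 pseudogenes among them, held 23 read pairs over 19 genes, and 10 of the 11 silent genes lie in it. Of the other runs, Gr47 to Gr45 held 152 read pairs, of which Gr45 had 107, Gr48 to Gr53 held 41 read pairs, Gr11 to Gr14 also held 41, and Gr8, Gr9 and Gr15 held 8. Read pairs that map to several places were not counted (0.690 to 0.863% of pairs per library), so members of a run with near-identical sequence may be undercounted; their similarity was not tested.

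Gr58, a receptor with no function given in the sources used here, was read at a nearly constant level. It had 4983, 4875 and 5629 read pairs in the dsGFP libraries, 5323, 5621 and 5631 in the water libraries, and 5623, 6877 and 6359 in the uninjected libraries. As TMM-scaled levels in CPM, these were 146, 161 and 159 after dsGFP, 152, 150 and 145 after water, and 148, 150 and 132 without injection. The 3 groups overlapped, and the highest library was 1.22 times the lowest. The group means were 155 ± 8.26, 149 ± 3.43 and 143 ± 9.91 CPM (SD, n = 3 each). The library with the highest Gr58 level was dsGFP 2 and the one with the lowest was uninjected 3, the same libraries that had the lowest and highest scaling factors. Scaled by library totals alone, the mean level was 148 ± 6.98 CPM in dsGFP libraries, 150 ± 5.79 CPM in water libraries and 148 ± 2.57 CPM in uninjected libraries (SD, n = 3 each), and the sign of the difference between dsGFP and water turned.

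The precision of Gr58 was the best in the family. Its log2 fold change was 0.06 (SE 0.10; 95% interval -0.15 to 0.27) between dsGFP and water, and 0.05 (interval -0.16 to 0.27) between water and uninjected pupae. Between dsGFP and uninjected pupae it was 0.11 (interval -0.10 to 0.32). None of these passed (edgeR adjusted p = 0.986, 0.999 and 0.552), and the bounds of the intervals reached at most 0.32 in size. Within groups the variance of Gr58 counts was 16.6 times that from counting alone.

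Per length, Gr58 also stood far above the other short members. Divided by the span of the gene in the RefSeq table (introns included, of a build that may not be the one the authors used), Gr58 had a mean level of 85.4 CPM per kb. Gr42, whose span is similar, had 0.254 CPM per kb and Gr45 0.216 CPM per kb, so Gr58 was 336 and 395 times higher. Among the 1830 tested protein-coding genes with a span of at most 2 kb, 141 had a higher level per kb than Gr58, and the median was 9.79 CPM per kb. Its counts were free of overlap with genes on the other strand: counting each strand apart added 2 read pairs over the 9 libraries.

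Gr2 and Gr3, the members that carry the numbers of the honey bee sugar and fructose receptors, had very different counts, and both share read pairs with a gene on the other strand. Gr2 had 212, 305 and 303 read pairs with dsGFP, 328, 293 and 300 with water, and 329, 343 and 460 uninjected. Its levels were 8.26 ± 1.94, 8.30 ± 0.917 and 8.56 ± 1.03 CPM (SD, n = 3 each). The groups overlapped, with dsGFP 1 lowest at 6.19 CPM and dsGFP 2 highest at 10.0 CPM. On the log2 scale dsGFP differed from water by -0.01 (SE 0.19, edgeR adjusted p = 0.997) and from uninjected pupae by -0.05 (SE 0.19, edgeR adjusted p = 0.903).

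Gr3 had 21, 8 and 26 read pairs with dsGFP, 25, 11 and 10 with water, and 21, 34 and 32 uninjected. Water 2, water 3 and dsGFP 2 were low, at 0.258 to 0.293 CPM, and the other 6 libraries lay between 0.552 and 0.743 CPM. The group means were 0.537 ± 0.245 CPM with dsGFP, 0.421 ± 0.253 CPM with water and 0.653 ± 0.0961 CPM uninjected (SD, n = 3 each). The groups overlapped, and the largest difference was -0.64 on the log2 scale between water and uninjected pupae (SE 0.44, edgeR adjusted p = 0.999).

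The level of Gr3 depends on how overlapping genes are counted. In the column used here a read pair that touches exons of genes on both strands is assigned to neither. Of the deposited columns for the strands, 1 assigns such a pair to one gene and the other assigns it to the gene opposite, so that over both columns the pair is counted once for each gene. Summed over both strands Gr3 had 3835 read pairs against 188 without regard to strand, a ratio of 20.4. The gain of 305 to 546 read pairs per library was matched by the neighbouring gene LOC100116110, which gained 296 to 550 and differed from Gr3 by at most 9 in any library. The library protocol does not mark strand, so these shared pairs cannot be given to either gene. Gr3 could therefore have had from 188 read pairs (0.537 CPM on average) to 3835 (11.2 CPM), the latter if every added pair were its own.

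For Gr2 the same ambiguity was smaller. Strand-wise counting added 1286 read pairs to its 2873, a ratio of 1.45. Its neighbour LOC100119944 gained 1287, the same number as Gr2 in 8 of 9 libraries. If every shared pair were its own, Gr2 would have 4159 read pairs (12.1 CPM on average) in place of 2873 (8.37 CPM). Gr5 gained 984 read pairs, from 980 to 1964, beside 1294 gained by the neighbouring cytochrome P450 gene CYP9AG4, whose span does not overlap Gr5 in the RefSeq table. Among the other 43 members the largest gain was 9 read pairs, in Gr41.

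**Figure D2:**
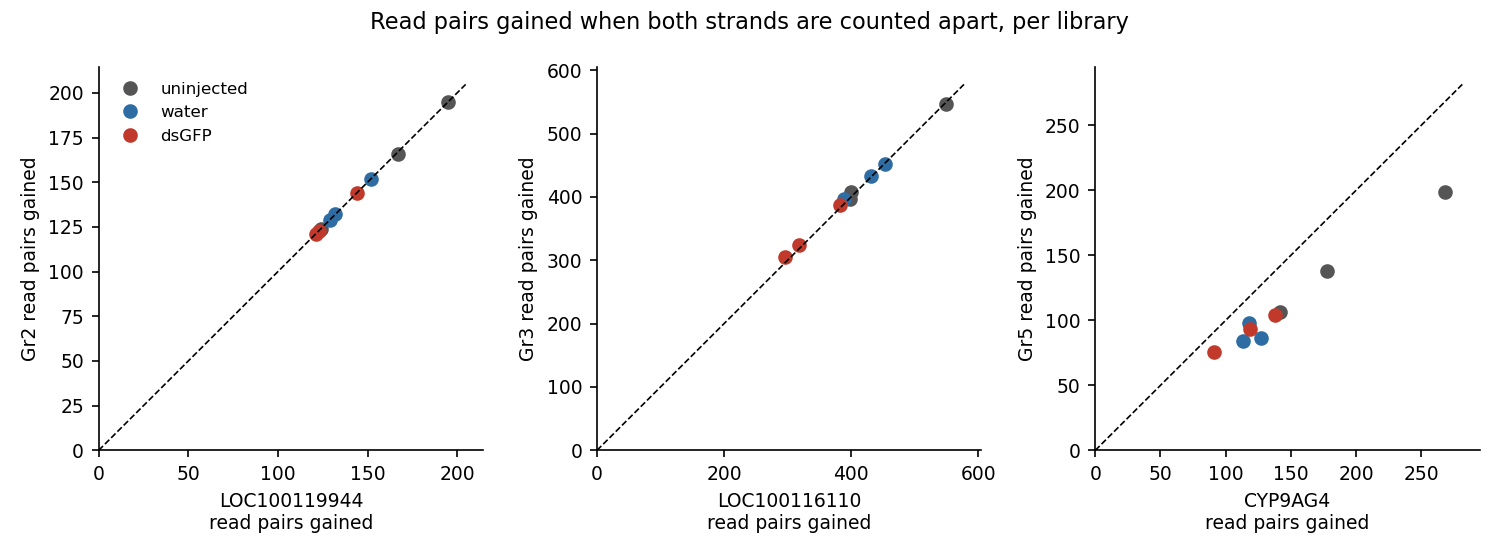
Read pairs gained per library when strands are counted apart, for Gr2, Gr3 and Gr5 (vertical axes) against the neighbouring gene (horizontal axes), with 1 point per library and the dashed line at equality. The points of Gr2 and Gr3 lie on or near the line, with differences of at most 1 and 9 read pairs, and those of Gr5 lie below it.

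Gr5, which has no role given in the sources used here, was the third most counted member in the column without regard to strand. With both strands summed Gr3 had more read pairs (3835 against 1964 for Gr5). In the column used here Gr5 had its lowest mean level in dsGFP libraries. It had 81, 82 and 89 read pairs with dsGFP, 107, 112 and 97 with water, and 123, 137 and 152 uninjected. Its levels in CPM were 2.37, 2.70 and 2.51 after dsGFP, 3.05, 2.98 and 2.50 after water, and 3.23, 2.99 and 3.15 without injection. The dsGFP libraries lay below all 3 uninjected libraries, and the water libraries overlapped both groups at this scaling. The means were 2.53 ± 0.168, 2.84 ± 0.301 and 3.13 ± 0.121 CPM (SD, n = 3 each). The difference between dsGFP and uninjected pupae was -0.31 on the log2 scale (SE 0.16; 95% interval -0.67 to 0.05) and did not pass edgeR's test (unadjusted p = 0.0878, adjusted p = 0.345). Scaled by library totals alone, Gr5 was at 2.35 to 2.47 CPM with dsGFP, below all water libraries (2.68 to 3.02 CPM) and all uninjected libraries (2.97 to 3.57 CPM). The difference from uninjected pupae was then -0.42 (SE 0.18; 95% interval -0.81 to -0.04), which again did not pass (edgeR unadjusted p = 0.0352, adjusted p = 0.219), and that from water was -0.25 (edgeR adjusted p = 0.931). With TMM and both strands summed the difference from uninjected pupae was -0.30 (interval -0.63 to 0.03, edgeR adjusted p = 0.314). That from water was then -0.004 (edgeR adjusted p = 0.998), and water differed from uninjected pupae by -0.29 (edgeR adjusted p = 0.977). The lower level with dsGFP than with water thus depended on the column used.

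Most markers of the nervous system, in which taste receptors are expressed, had lower values in dsGFP than in uninjected libraries. The 8 tested receptors were split in that comparison, with 4 higher and 4 lower. Of 16 such marker genes, none at 0, 15 were tested, 13 had lower values with dsGFP than in uninjected pupae, and 1 was called. Among all 11665 tested genes 5698 had lower values in that comparison and 4.55% were called, so the single call is near the background. As many, 13 of 15, were lower with dsGFP than with water, and also with water than in uninjected pupae (0 called in either). The marker lists were chosen with earlier results of these data known, so the direction counts may reflect that choice. The summed level of the 16 genes was 200 to 257 CPM with dsGFP, 255 to 293 CPM with water and 271 to 351 CPM uninjected. The other marker lists differed in direction between dsGFP and uninjected pupae: of 3 muscle genes 2 had lower values (median log2 fold change -1.13, 1 called), and of 24 tested cuticle genes 9 had lower values (median 0.70, 3 called lower). The summed muscle level was not lower with dsGFP, at 853 to 918 CPM against 779 to 931 CPM with water and 772 to 883 CPM uninjected. The part of these cell types in the Gr5 values was not tested.

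Gr42, with no role given in the sources used here, had its highest values with dsGFP. It had 14, 14 and 18 read pairs with dsGFP, 11, 13 and 13 with water, and 10, 16 and 14 uninjected. As levels, 0.409 to 0.508 CPM with dsGFP lay above 0.314 to 0.346 CPM with water and 0.263 to 0.350 CPM uninjected. The difference was 0.47 on the log2 scale from water (SE 0.30; 95% interval -0.19 to 1.12) and 0.60 from uninjected pupae (SE 0.30; interval -0.05 to 1.25). Neither passed (edgeR adjusted p = 0.923 and 0.309). The variance of its counts within groups was 0.165 times that from counting alone, so at these counts the spread was no wider than sampling gives. Gr42 and its neighbour Gr41 lie within the spans of 8 other genes in the RefSeq table, and read pairs from unspliced RNA of those genes cannot be told apart from their own.

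Gr41 fell just outside the filter, at 3 to 15 read pairs per library and a mean of 0.211 CPM, where Gr6 and Gr45 fell just inside it at means of 0.312 CPM each. Gr41 had 3, 7 and 7 read pairs with dsGFP, 8, 8 and 7 with water, and 11, 15 and 7 uninjected. Its values overlapped between dsGFP and uninjected libraries. It was fitted only in the alternative with no filter, at -0.55 on the log2 scale between these groups (SE 0.50, edgeR adjusted p = 0.628 over 14532 genes).

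Gr6, Gr7 and Gr45 were near the limit of counting. Gr6 had 10, 22 and 2 read pairs with dsGFP, 7, 7 and 19 with water, and 14, 9 and 14 uninjected. Its highest library was 12.8 times its lowest, and both were dsGFP libraries. Gr7 had 10 to 15 read pairs in the dsGFP libraries, 9 to 14 in the water libraries, and 9, 32 and 13 in the uninjected libraries, so that uninjected 2 stood above all others. Gr45 had 10, 8 and 12 read pairs with dsGFP, 19, 7 and 12 with water, and 10, 11 and 18 uninjected. All groups overlapped for these 3 genes, and their largest fold change was 0.30 in size on the log2 scale, for Gr6 between dsGFP and uninjected pupae (SE 0.68, edgeR adjusted p = 0.841). Within groups the variance was 5.26 times that from counting for Gr6, 2.86 times for Gr7 and 1.47 times for Gr45.

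**Figure D3:**
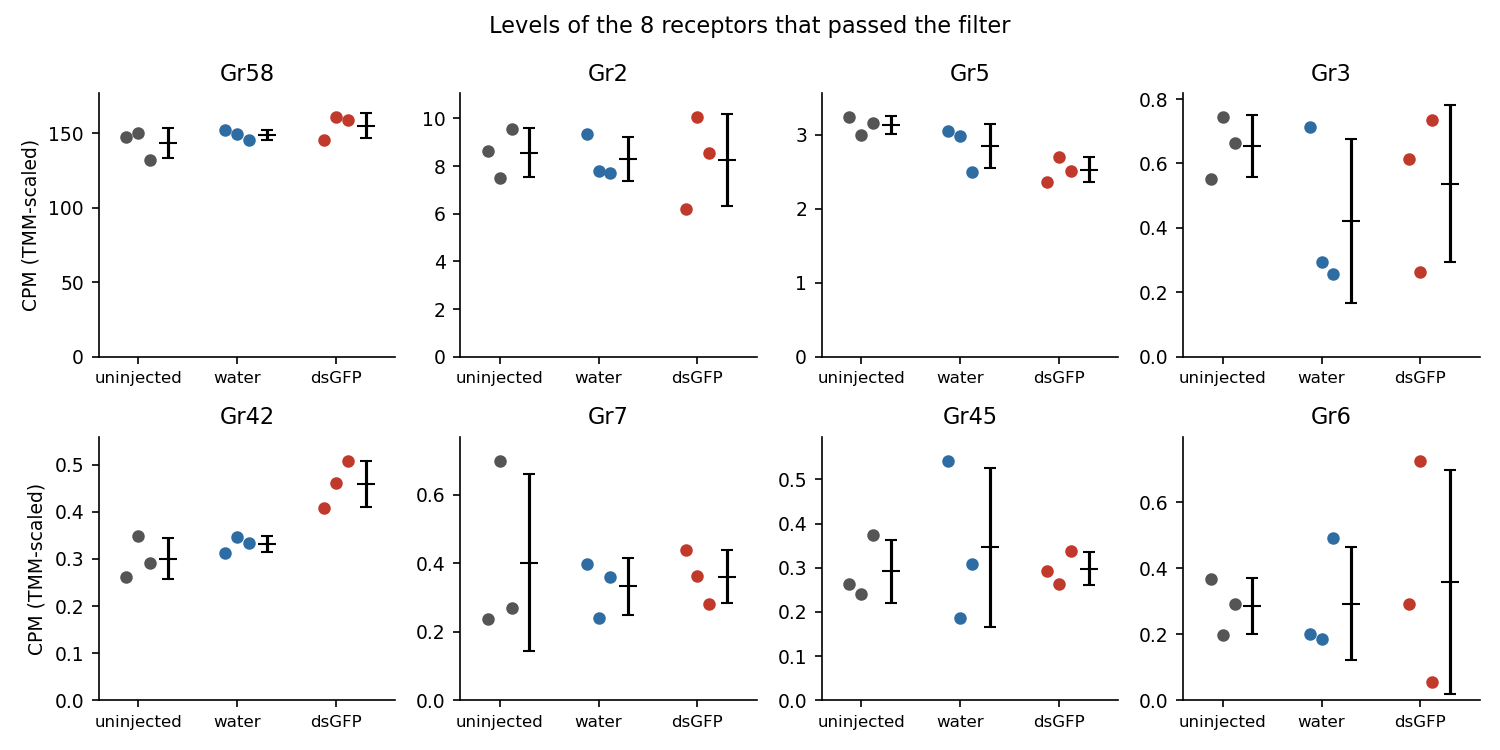
TMM-scaled CPM of the 8 receptors that passed the filter, with 1 point per library and the mean ± SD of 3 libraries beside each group; axes start at 0 and differ between genes. Gr58 lies between 132 and 161 CPM in all libraries, Gr5 is lower in dsGFP than in uninjected libraries without overlap, and Gr42 is higher in dsGFP than in the other groups without overlap.

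In the main fit 8 of the 46 members were tested and 0 were called, near the shares among all tested genes. The family was not tested as a group. By edgeR's quasi-likelihood test 0 of 8 were called between dsGFP and water, where 0% of all 11665 tested genes were called. Between water and uninjected pupae 0 of 8 were called, against 0.00857% of all genes, and between dsGFP and uninjected pupae 0 of 8, against 4.55%. The test for any difference among the 3 groups also called 0 of 8, against 2.04%. The number of genes called between dsGFP and uninjected pupae (531) moved with single libraries. It was 134 without dsGFP 2, 244 without dsGFP 1, 295 without uninjected 2 and 681 without uninjected 1. Without any other single library it was 362 to 512. Receptors called in these fits were also 0. At an unadjusted p under 0.05 edgeR and DESeq2 counted 0 in all 4 tests. Limma-voom counted 1, and so did edgeR with library totals alone (Gr5), between dsGFP and uninjected pupae, and none of these called any.

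Groups without overlap were about as frequent as among all genes. Between dsGFP and water 1 of 8 (Gr42) did not overlap, against 12.3% of all tested genes. Between dsGFP and uninjected pupae it was 2 of 8 (Gr42 higher and Gr5 lower), against 21.9%, and between water and uninjected pupae 0 of 8, against 8.64%. With library totals alone Gr5 also did not overlap between dsGFP and water, which made 2 of 8 against 11.9%, and the other comparisons stayed at 2 of 8 (21.8%) and 0 of 8 (7.96%). The dsGFP and water groups are compared with the same uninjected libraries.

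In direction the 8 genes were split. Values were higher with dsGFP than with water in 5 and lower in 3, with a median log2 fold change of 0.09 where the median of all genes was 0.01. Between water and uninjected pupae 4 were higher and 4 lower (median 0.00, and 0.00 over all genes), and likewise between dsGFP and uninjected pupae (median -0.01, and 0.01 over all genes). The 95% intervals differed greatly in width, with bounds of at most 0.32 in size for Gr58 and up to 1.81 for Gr6. For Gr3, Gr6, Gr7, Gr42 and Gr45 at least 1 interval included a 2-fold difference.

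**Figure D4:**
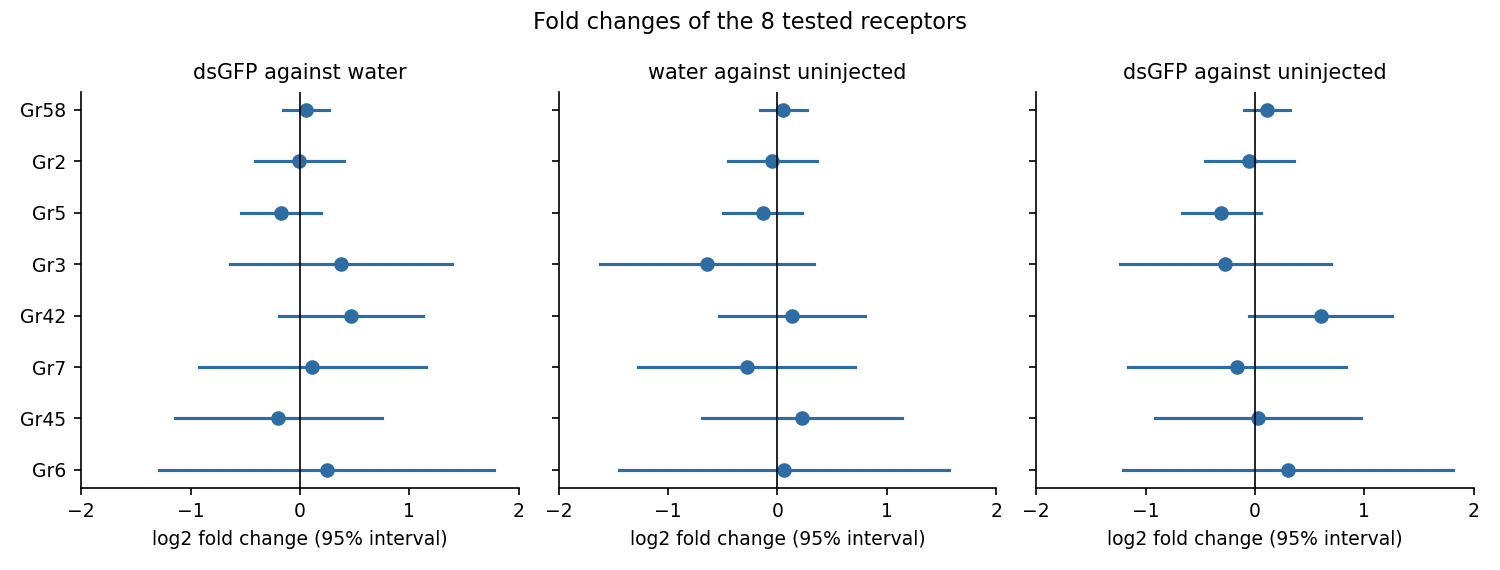
Fitted log2 fold changes (points) and 95% intervals (lines) of the 8 tested receptors in each pairwise comparison; the vertical line marks no difference. All intervals include 0, and they are narrowest for Gr58 and widest for Gr6.

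The summed level of all 46 genes was 168 ± 10.2 CPM with dsGFP, 163 ± 4.75 CPM with water and 158 ± 9.12 CPM uninjected (SD, n = 3 each), with overlap between all groups. Without Gr58 it was 13.3 ± 2.01, 13.7 ± 1.53 and 14.4 ± 0.834 CPM, again with overlap. Gr58 held 91.3 to 92.8% of the family's read pairs in dsGFP libraries, 90.8 to 92.0% in water libraries and 89.6 to 91.7% in uninjected libraries. Each library had counts for 13 to 21 of the 46 genes, the lowest number in dsGFP 2 and the highest in water 2.

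Below the filter, 7 genes had read pairs in at least 5 of the 9 libraries. Beside Gr41 these were Gr46 (0 to 9 read pairs per library), Gr14 (0 to 6), Gr49 (1 to 4), Gr47 (0 to 4), Gr51 (0 to 5) and Gr18 (0 to 2). Gr46 had 9, 5 and 6 read pairs with water, 0, 1 and 3 with dsGFP, and 2, 3 and 1 uninjected, so the water libraries lay above all others. Among all genes that passed the filter, 12.3% did not overlap between dsGFP and water and 8.64% between water and uninjected pupae. Gr46 is not among these better-counted genes, and no share was taken for water lying above both other groups. With no filter Gr46 had an unadjusted p = 0.0224 against dsGFP and 0.0229 against uninjected pupae, and it did not pass (edgeR adjusted p = 0.833 and 0.825 over 14532 genes). Gr45, Gr46 and Gr47 all lie within the span of LOC103317736, which was at 12.3 ± 0.880 CPM in dsGFP libraries, 15.9 ± 3.07 CPM in water libraries and 19.2 ± 4.70 CPM in uninjected libraries (SD, n = 3 each). The remaining 20 detected genes had read pairs in fewer than 5 libraries and at most 14 over all 9.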

How the data were processed

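Whole-body RNA was poly(A)-selected and read in 150 bp pairs, per the labels' protocols; a strand-marking step is not among those listed. The authors deposited raw counts of read pairs per gene for each library, 1 column without regard to strand (used here) and 2 for the strands; the submitters' processing notes name STAR 2.6.1b, and no source used here gives the genome build. The first strand column held 49.95 to 50.13% of strand counts. Of 15430 deposited rows, 12 name no gene and were left out (0.0518 to 0.0608% of counts); 14940 of the other 15418 symbols matched a RefSeq table used for names, spans and gene order.

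Genes were kept by filterByExpr by group (minimum count 10, minimum total 15), scaled by TMM and tested in 1 fit of all 9 libraries with edgeR 4.0.16 (glmQLFit, robust; glmQLFTest) in R 4.3.3, with Benjamini-Hochberg adjusted p under 0.05 called. The SE is the size of the log2 fold change over the square root of F. DESeq2 1.42.0, limma-voom (limma 3.58.1) and other filters, scalings, columns, pairings and left-out libraries were alternatives. No set of genes was tested as a group. Every receptor that passed the filter was to be named with its values, and of the others those counted in at least 5 libraries; neuronal and cuticle markers were taken by symbol. Members and lists were chosen with earlier results of these data known. Libraries of a group differed by far more than sampling noise (chi-square per gene 96.3 or more), so none was counted as a repeat. Intervals of counts and limits for 0 counts cover counting error only.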

Additional observations from a re-analysis of the deposited data

Results flagged for a closer look

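Read pairs that appear only when each strand is counted apart, outside the counts used for the main comparisons, were most numerous for 3 receptors. Over the 9 libraries they came to 3647 for Gr3, 1286 for Gr2 and 984 for Gr5. Among the other 43 members they came to at most 9, in Gr41. For Gr2 and Gr3, whether they come from the receptor or from the overlapping gene was not tested, since the libraries carry no strand. For Gr5 the gene that shares them was not established. Its neighbour CYP9AG4 does not overlap it by span, and the gains of the 2 genes differed by up to 69 read pairs in a library.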

How the results depend on the processing

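In all 87 comparisons by setting, 0 gustatory receptors were called in any comparison, and the lowest adjusted p of a receptor was 0.219 (Gr5, dsGFP against uninjected); in 6 of them 1 receptor had an unadjusted p under 0.05. Depth limits the low members, and the level per coding length was not run, since no table used here gives it. The number of receptors kept (8) was 4 in either strand column alone, 4 at a mean of at least 0.5 CPM and 3 at 1 CPM, and 8 to 9 with 1 library left out; of 35 detected genes, 16 had at least 10 counts. Summed family levels without Gr58 were 13.3, 13.7 and 14.4 CPM (dsGFP, water, uninjected), and with both strands summed 172 CPM for water.

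Counts of called genes over the whole table moved more. DESeq2 called 6 (dsGFP against water), 45 (water against uninjected), 933 (dsGFP against uninjected) and 678 (any difference) genes, against 0, 1, 531 and 238. With dsGFP 1, water 3 and uninjected 3 left out together the last 3 counts were 0, 0 and 0, and with uninjected 2 and 3 left out (the 1 remaining uninjected library is taken to have the spread of the other groups) they were 9, 5 and 7. A fit of only the groups compared called 255 between dsGFP and uninjected, limma-voom 1 for any difference, and the second strand column 0 (water against uninjected) and 149 (any difference). With 1 library left out the counts ranged from 1 to 7 (the 7 without uninjected 1), 134 to 681 (134 without dsGFP 2, 244 without dsGFP 1, 295 without uninjected 2) and 0 to 384 (the 384 without uninjected 1, and at most 2 without any other library). The cause was not tested.

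Replicate numbers did not pair the libraries (correlations of same-numbered libraries -0.41 to 0.47; dsGFP 3 was closest to water 2 at 0.70). With the replicate block 539 genes were called between dsGFP and uninjected and 216 for any difference, and 0 receptors.

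Of 480 receptor fold changes under alternatives 432 kept their direction, none changed side of the threshold, and 48 turned in sign, all uncalled. For dsGFP against water the strand columns (summed, first, second) turned Gr3 to -0.16, -0.26 and -0.065 and Gr2 to 0.015, 0.015 and 0.0079, and the first turned Gr5 to 0.021; limma-voom turned Gr6 to -0.19 and library totals Gr58 to -0.020. For water against uninjected they turned Gr3 to 0.13, 0.18 and 0.069, and Gr6 was -0.028 by limma-voom and -0.016 with strands summed. For dsGFP against uninjected Gr3 was 0.0045 with the second strand column, Gr2 0.0016 with the first, Gr6 -0.22 by limma-voom and Gr45 -0.092 with library totals. Without dsGFP 1, water 3 and uninjected 3, Gr2 was 0.11, 0.081 and 0.19 in the 3 comparisons and Gr6 -0.53 for water against uninjected. Without uninjected 2 and 3, water against uninjected gave Gr6 -0.34, Gr58 -0.012 and Gr7 0.46, and dsGFP against uninjected Gr6 -0.10 and Gr7 0.58. With 1 library left out, dsGFP against water ranged from -0.75 to 0.84 for Gr6, -0.069 to 0.27 for Gr7, -0.17 to 0.17 for Gr2 and -0.49 to 0.27 for Gr45. Water against uninjected ranged from -0.55 to 0.28 for Gr6, -0.017 to 0.078 for Gr58, -0.53 to 0.37 for Gr7, -0.14 to 0.024 for Gr2 and -0.24 to 0.51 for Gr45. dsGFP against uninjected ranged from -0.56 to 0.045 for Gr3, -0.70 to 0.83 for Gr6, -0.42 to 0.49 for Gr7, -0.21 to 0.11 for Gr2 and -0.11 to 0.24 for Gr45.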

Other observations

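The odorant receptors, the other large chemoreceptor family, had another distribution of counts, given here side by side with no test of the difference. Of 214 odorant receptor genes 211 (98.6%) had at least 1 count and 78 (36.4%) passed the filter, against 35 of 46 (76.1%) and 8 of 46 (17.4%) of the gustatory receptors. The median gene had 49 read pairs over the 9 libraries among odorant receptors and 3.5 among gustatory receptors. The most counted odorant receptor, Or261, held 7.77% of its family's 35518 read pairs, where Gr58 held 91.5% of 55672. Between dsGFP and uninjected pupae 2 of the 78 tested odorant receptors were called, both lower, where 4.55% of all tested genes were called (480 of 531 lower), and the median log2 fold change was -0.27, against -0.01 for the gustatory receptors. Of 3 odorant-binding protein genes found by symbol 1 passed the filter, OBP19, at 0.795 CPM on average. Ionotropic receptors, chemosensory proteins, sensory neuron membrane proteins and pickpocket channels were looked for by symbol and gave 0 rows.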
